A study of Mus musculus with 25 samples.

Results

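The globin and red cell genes followed here are 8 rows of a gene expression table of the E14.5 mouse palate, picked by symbol out of 37406 genes, and all 8 were found in it. They are the embryonic globins Hbb-y, Hbb-bh1 and Hba-x, the adult globins Hba-a1 and Hbb-b1, the heme enzyme gene Alas2, the membrane gene Slc4a1 and the transcription factor gene Klf1. Palates of wild type CD1 embryos were sectioned, cells of 8 compartments were collected by laser capture microdissection (LCM), and their RNA was amplified and sequenced. In both the anterior and the posterior palate, medial, lateral, oral and nasal compartments were captured, in 3 replicates each, or 4 for anterior nasal, which gave 25 libraries, 13 anterior and 12 posterior. By the labels every embryo was of the same strain, age and genotype. A compartment is a piece of tissue and not a cell type, and blood in its vessels can be captured with it. Names of 6 libraries hold the words ERK2_WT or Tgfbr2_WT, although the labels give CD1 for all.

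Red blood cells carry oxygen on hemoglobin, a tetramer of alpha-like and beta-like globin chains, each holding a heme. The first red cells of the mouse embryo arise in the yolk sac, circulate with their nuclei and express embryonic globins, and red cells made later in the fetal liver express adult globins. Around midgestation both kinds circulate together. The globin genes lie in an alpha cluster on chromosome 11 and a beta cluster on chromosome 7, where the embryonic genes stand before the adult ones.

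In the mm9 coordinates of the table, the beta-like genes were Hbb-y (chr7:111000268-111001721), Hbb-bh1 (chr7:110990152-110991676) and Hbb-b1 (chr7:110961038-110962437). The alpha-like genes were Hba-x (chr11:32176600-32178115) and Hba-a1 (chr11:32183672-32184493). The other members were Alas2 (chrX:146981960-147005165), Slc4a1 (chr11:102210134-102226595) and Klf1 (chr8:87425827-87429194). Values are RPKM (reads scaled to the length of the transcript and to the mapped reads of the library), so that levels can be compared between genes of different length. Reads per library, worked out from the steps between RPKM values, lay between 1.64 and 6.56 M with a median of 3.27 M. These are the reads that the RPKM values were scaled to. The paper gives a far higher average number of reads per sample. By the estimated reads, the 6 libraries named for ERK2 or Tgfbr2 were the deepest, with 4.07 to 6.56 M against 1.64 to 3.86 M in the other 19. On log2 values across genes, posterior medial 2 had the lowest mean correlation with its replicates (r = 0.652), followed by anterior oral 1 (r = 0.703), against up to 0.926 for anterior medial 3.

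Embryonic globin transcripts were abundant in every compartment. Hbb-y, the embryonic beta-like chain called epsilon y, had a mean of 227 RPKM ± 80.5 (SD, n = 25), a level above that of 99.8% of all genes in the table. Hba-x, the embryonic alpha-like chain called zeta, had a mean of 172 RPKM ± 72.7 (SD, n = 25). Hbb-bh1, the other embryonic beta-like chain, was far lower at 3.44 RPKM ± 4.11 (SD, n = 25).

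Across the compartments Hbb-y was highest in posterior oral, with 312, 373 and 280 RPKM in its 3 libraries. Posterior medial had 241, 297 and 389 RPKM, and posterior lateral 141, 297 and 360 RPKM. Anterior lateral had 223, 205 and 239 RPKM, and anterior medial 265, 192 and 213 RPKM. In this order each compartment overlapped with the next, while all posterior oral libraries lay above all of those of anterior lateral and medial. Posterior nasal had 172, 243 and 151 RPKM. Anterior nasal had 168, 159, 162 and 136 RPKM, and anterior oral 59.1, 213 and 186 RPKM. The lowest Hbb-y level of all libraries was that of anterior oral 1, one of the libraries least like their replicates.

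Hba-x followed a like order. Posterior oral was highest with 340, 294 and 165 RPKM, then posterior medial with 289, 128 and 273 RPKM and posterior lateral with 137, 198 and 269 RPKM. Anterior lateral had 179, 155 and 157 RPKM and anterior oral 99.6, 146 and 224 RPKM. The lowest levels were in anterior medial, with 176, 89.8 and 146 RPKM, in posterior nasal, with 192, 125 and 91.7 RPKM, and in anterior nasal, with 60.6, 112, 113 and 137 RPKM. Every compartment overlapped with its neighbours in this order.

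Hbb-bh1 lay between 0 and 4.86 RPKM in 21 of the 25 libraries and was higher in 4, posterior oral 1 at 19.3, anterior nasal 4 at 10.04, anterior oral 3 at 7.47 and posterior nasal 1 at 7.36 RPKM. Those 4 libraries are the ones named for Tgfbr2, and all were in 1 sequencing run. Hbb-bh1 was at 0 in anterior oral 2 and posterior medial 2, where a count of 0 reads allows up to 0.896 and 1.33 RPKM (a floor of 3 reads, covering counting error only).

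**Figure D1:**
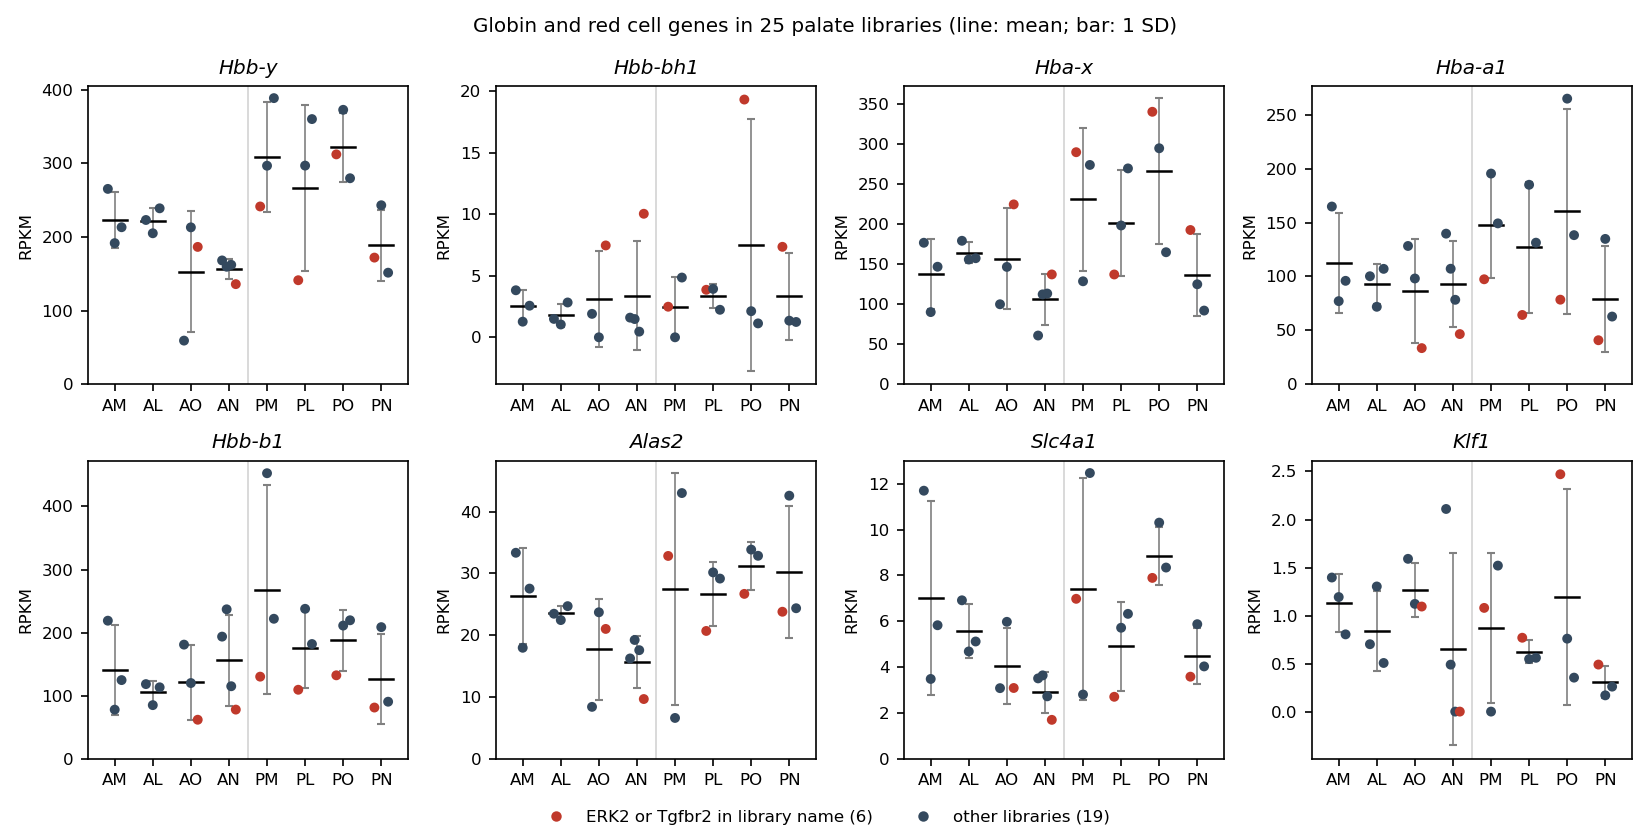
RPKM of each of the 8 genes by compartment, on a separate linear axis for each gene. Points are libraries, horizontal lines compartment means and bars 1 SD, and red points are the 6 libraries with ERK2 or Tgfbr2 in their names. A and P stand for anterior and posterior, and M, L, O and N for medial, lateral, oral and nasal. Hbb-y, Hba-x and Slc4a1 have their highest means in posterior oral, and the high Hbb-bh1 points are red.

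Of the adult globins, Hbb-b1, an adult beta chain, had a mean of 160 RPKM ± 83.7 and Hba-a1, an adult alpha chain, 112 RPKM ± 53.5 (SD, n = 25). Hbb-b1 was highest in posterior medial, with 130.3, 453 and 222 RPKM, and lowest in anterior lateral, with 118, 85.1 and 113 RPKM. Hba-a1 was highest in posterior oral, with 78.4, 265 and 138 RPKM, and lowest in posterior nasal, with 40.7, 135 and 62.7 RPKM. For both genes the replicates of 1 compartment spread widely, and all neighbours in the order of compartment means overlapped.

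Embryonic chains made up 38.5% ± 10.6 (SD, n = 25) of the summed RPKM of the beta-like rows and 57.5% ± 10.8 of that of the alpha-like rows. The beta-like sum includes Beta-s, a further adult beta row of the table with a mean of 237 RPKM, and the alpha-like sum includes Hba-a2, the second adult alpha gene. The embryonic share of the beta-like rows was 37.8% ± 12.1 (n = 13) in the anterior and 39.3% ± 9.06 (n = 12) in the posterior palate, and the ranges overlapped. Among single libraries it ran from 12.9% in anterior oral 1 to 61.3% in anterior oral 3, both of the same compartment. All globin rows together came to 539 to 1686 RPKM, or 0.183% to 0.508% of the summed RPKM of a library.

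**Figure D2:**
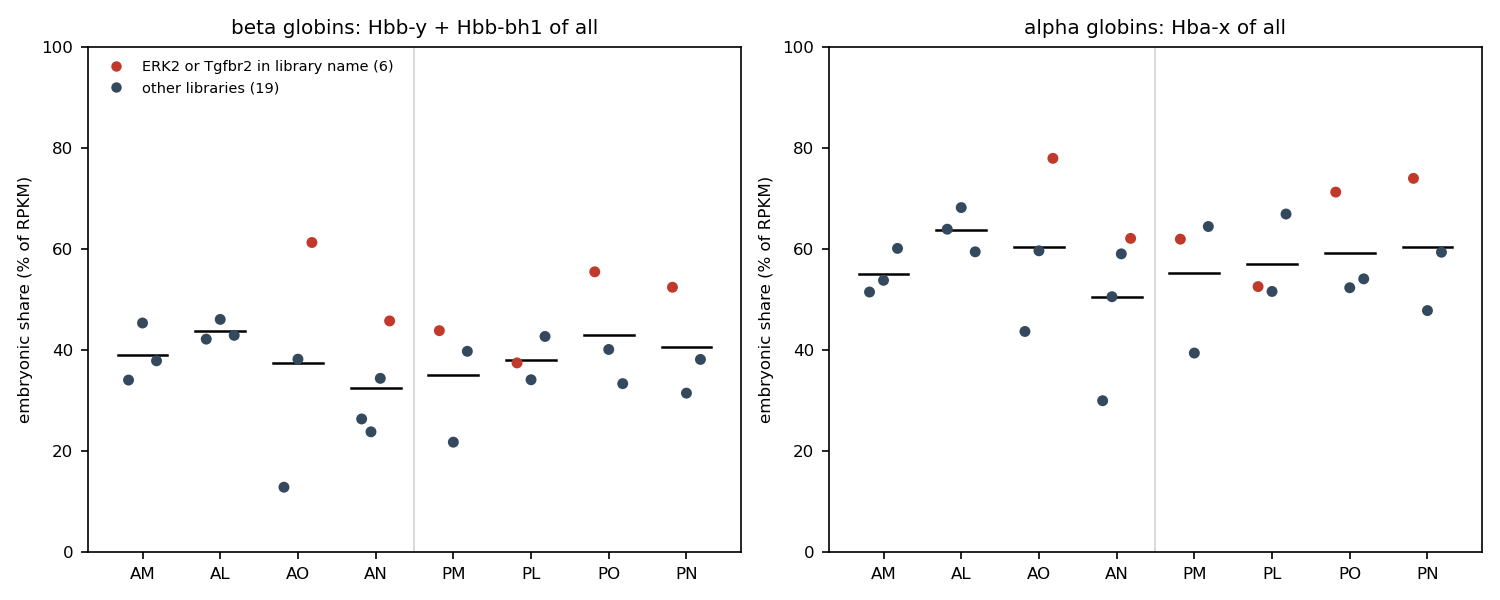
Embryonic share (percent) of the summed RPKM of the beta-like and of the alpha-like globin rows in each library, by compartment. Red points are the 6 libraries with ERK2 or Tgfbr2 in their names, which lie at 37.5% to 61.3% for beta-like and 52.6% to 78.0% for alpha-like rows, against 12.9% to 46.1% and 30.01% to 68.2% in the other 19.

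Alas2 encodes the erythroid form of aminolevulinate synthase, which makes the first precursor of heme in red cells. Its mean was 24.5 RPKM ± 9.27 (SD, n = 25). The lowest level of all libraries was 6.61 RPKM in posterior medial 2 and the highest 43.0 RPKM in posterior medial 3, both of the same compartment. Posterior medial 2 was at the same time the library with the most Hbb-b1 (453 RPKM), and its Alas2 came to 0.392 per 100 RPKM of globin, against a median of 2.95 over all libraries. The summed level of the platelet marker genes was also highest there, at 130.4 RPKM against 13.9 to 69.6 RPKM in the other libraries. Whether these values are linked was not tested.

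Slc4a1 encodes band 3, the anion exchanger of the red cell membrane, and had a mean of 5.54 RPKM ± 2.86 (SD, n = 25). Posterior oral had 7.89, 10.3 and 8.35 RPKM and anterior nasal, the lowest compartment, 3.51, 3.64, 2.73 and 1.70 RPKM. No anterior nasal library reached the lowest posterior oral one. Klf1 encodes a zinc finger factor that drives adult beta-globin and other red cell genes. It was near the limit of detection, at 0.851 RPKM ± 0.640 (SD, n = 25) and an estimated 0 to 23.7 reads per library. It was at 0 in anterior nasal 3, anterior nasal 4 and posterior medial 2, where 0 reads allow up to 0.867, 0.481 and 0.832 RPKM.

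The table holds the near-identical adult alpha genes Hba-a1 and Hba-a2 as separate rows. By the paper, reads that aligned more than once had been removed, so that stretches the copies share would not be counted. In the GRCm38 annotation the coding sequences of Hba-a1 and Hba-a2 (426 bases) differ at 1 base in exon 3, written C381T (the Hba-a1 base, its position counted from the A of the start codon, the Hba-a2 base). Both sites are printed here because a read could be told apart within the coding sequence at that base alone, which is in capitals (GRCm38, plus strand, chr11:32284313-32284373 and chr11:32297130-32297190).
Hba-a1: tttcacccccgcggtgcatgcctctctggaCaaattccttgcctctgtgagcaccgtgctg
Hba-a2: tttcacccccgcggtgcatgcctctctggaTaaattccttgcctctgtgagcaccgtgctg
Of the 50-base windows along the annotated transcript, 32.5% were unique for Hba-a1 and 13.1% for Hba-a2. For the pair of adult beta genes in the annotation, Hbb-bs and Hbb-bt, 34.2% and 41.7% were unique. All windows of Hbb-y, Hbb-bh1, Hba-x, Slc4a1 and Klf1 were unique, and 86.2% of those of Alas2, which shares 263 with its neighbour Apex2. If all reads of windows that are not unique were removed, adult globin levels are low estimates beside embryonic ones, by an amount not measured. With duplicates removed too, a unique window leaves at most 1 read per strand. Yet Hba-a2 in posterior medial 1 had an estimated 247 reads beside 66 unique windows, and Hba-a1 in posterior oral 2 had 515 beside 211. Whether the removal, the estimated reads or the windows were inexact was not tested.

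Hba-a2 divided the libraries by name rather than by compartment, a pattern seen after the values were known. The 4 libraries named for Tgfbr2 had 29.9 (anterior oral 3), 36.9 (anterior nasal 4), 58.4 (posterior oral 1) and 26.8 RPKM (posterior nasal 1). The 2 named for ERK2 had 80.1 (posterior medial 1) and 59.1 RPKM (posterior lateral 1). The other 19 libraries lay between 0 and 2.57 RPKM, with no overlap. As a share of the adult alpha sum, Hba-a2 was 39.7% to 47.9% in the 6 and 0% to 2.02% in the 19.

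The sum of Hba-a1 and Hba-a2 overlapped between the sets, at 63.3 to 177.5 RPKM in the 6 and 62.7 to 267.6 RPKM in the 19. Hba-a1 alone was 33.4 to 97.3 RPKM in the 6 and 62.7 to 265 RPKM in the 19. The ratio of Hba-x to Hbb-y was 0.969 to 1.202 in the 6 and at most 0.802 in the others, except for anterior oral 1 at 1.68. Of 11913 genes, 157 had no overlap between the 6 and the 19 libraries, 50 higher and 107 lower in the 6 (1.32%). Depth, run and library name go together in these libraries and cannot be told apart.

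**Figure D3:**
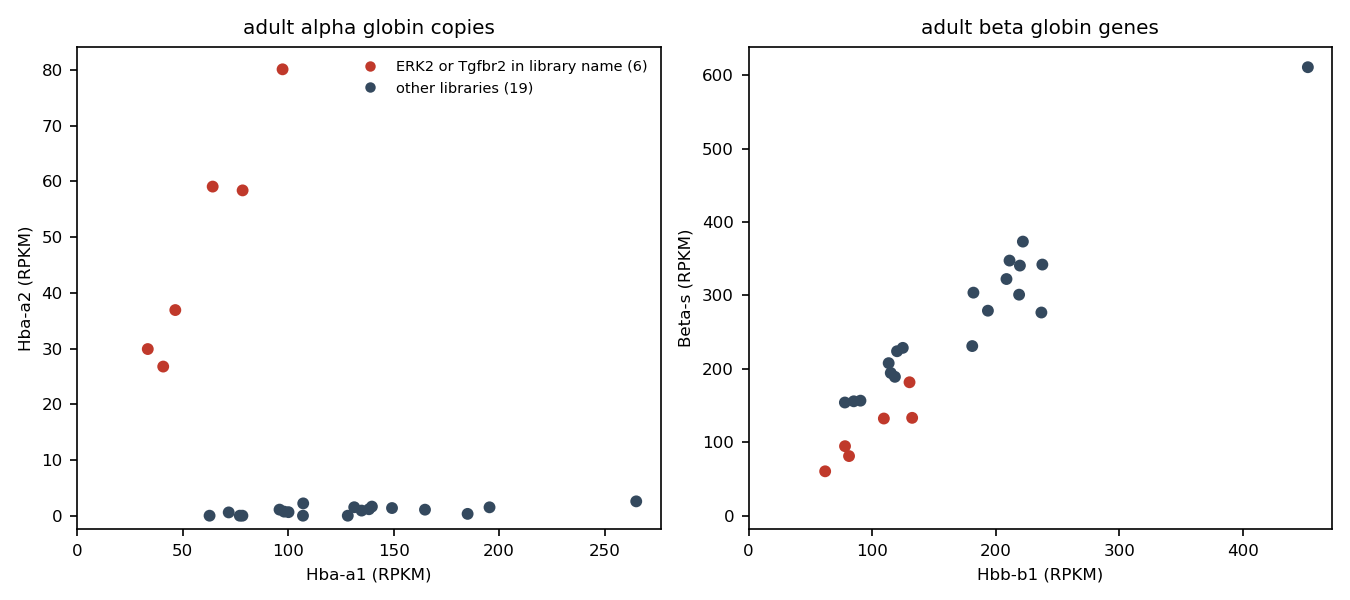
Hba-a1 and Hba-a2 (RPKM) in each library, with red points for the 6 libraries with ERK2 or Tgfbr2 in their names and dark points for the other 19. Hba-a2 is 26.8 RPKM or more in every red point and 2.57 RPKM or less in every dark one.

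To ask whether levels of these genes differ along the palate, the posterior libraries were compared with the anterior ones. Hbb-y had a median of 288 RPKM (141 to 389) in the 12 posterior and 192 RPKM (59.1 to 265) in the 13 anterior libraries. For Hba-x the medians were 195 RPKM (91.7 to 340) and 146 RPKM (60.6 to 224). For Alas2 they were 29.7 RPKM (6.61 to 43.0) and 21.02 RPKM (8.41 to 33.3). Posterior levels were higher on average for each of these genes, but the ranges overlapped.

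On the log2(RPKM + 0.1) scale, where a fold change understates that of low genes, the posterior minus anterior difference was 0.54 (SE 0.20) for Hbb-y and 0.55 (SE 0.21) for Hba-x. Their limma adjusted p-values over all genes were 0.171 and 0.194. The differences of Hbb-b1 (0.48, SE 0.25), Alas2 (0.47, SE 0.24) and Hba-a1 (0.35, SE 0.27) had limma adjusted p-values of 0.376, 0.367 and 0.594. All 5 members tested were higher in the posterior libraries on average, as were 55.7% of all 8608 genes. The median of the 5 members was 0.48 against 0.03 over all genes. None passed an adjusted p of 0.05 (3.32% of all genes did), 2 had an unadjusted p under 0.05 (15.3% of all genes), and none met the study thresholds, which ask for a fold change above 2 beside that p (1.75%). Slc4a1, Klf1 and Hbb-bh1 were below the minimum of 10 RPKM in 6 samples, and without a minimum differed by 0.44 (SE 0.27), -0.30 (SE 0.51) and 0.43 (SE 0.67).

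The Alas2 difference turned on posterior medial 2. Without that library it was 0.65 (SE 0.18) with a limma adjusted p of 0.0373, the only member called under any alternative. Without the 6 libraries named for ERK2 or Tgfbr2 the difference of Hbb-y was 0.68 with a limma adjusted p of 0.14, and no member was called. Within sequencing runs, all 8 members were higher in the posterior libraries of the Tgfbr2 run (2 against 2 libraries), and 6 of 8 in each of the other 2 runs that held both regions. In those 2 runs (5 against 3 and 3 against 1 libraries) every member overlapped, and unlike compartments were compared. In the Tgfbr2 run only Hbb-b1, Alas2 and Slc4a1 did not overlap. The share of all genes within runs was not counted. Marker genes of macrophages were also higher on average in the posterior palate, 5 of 6 tested with a median of 0.42. Of endothelial ones 2 of 10 were, and of all genes 55.7%. In tissue samples fewer red cells and less RNA per red cell cannot be told apart.

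**Figure D4:**
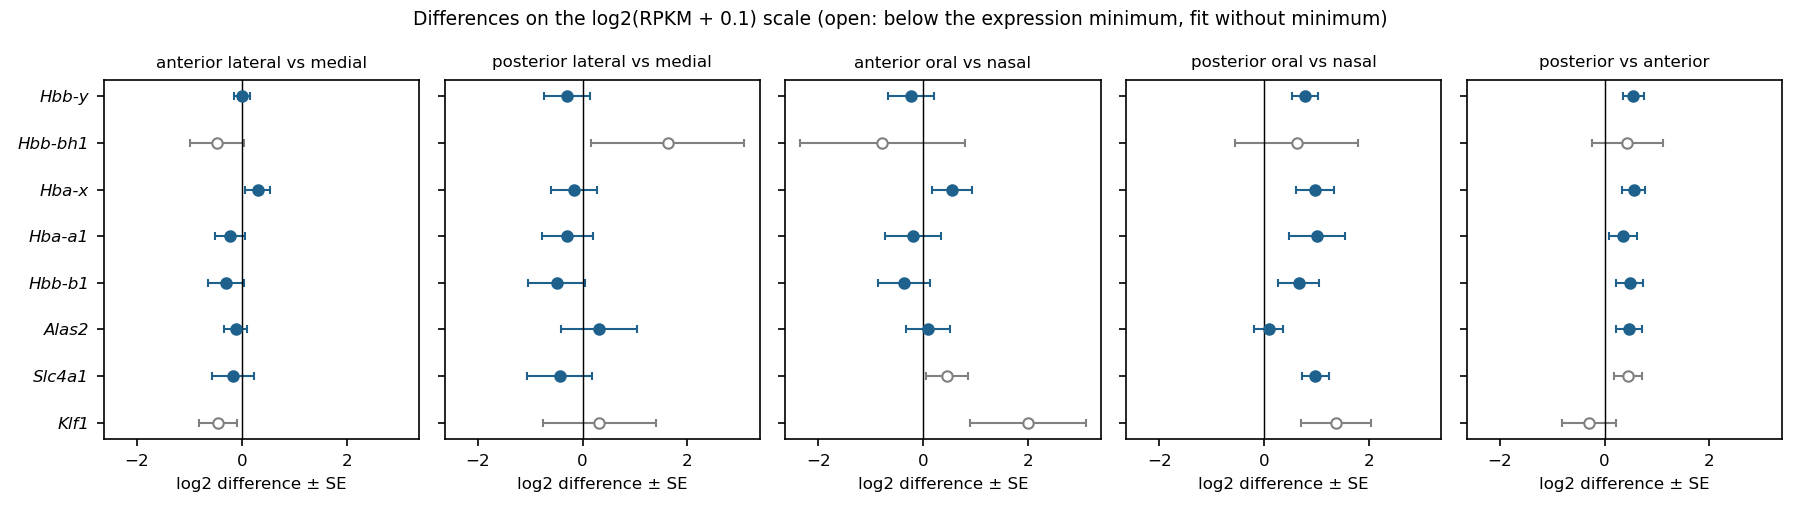
Log2 difference of each gene in the 5 comparisons of compartments, with bars of 1 SE. Filled circles are genes above the expression minimum, and open circles are genes below it, from the fit without a minimum. In posterior oral against nasal all 6 filled points lie above 0, between 0.09 and 1.02, beside 47.8% of all genes above 0.

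To find differences across the palatal shelf, oral was compared with nasal. In the posterior palate Slc4a1 had 7.89, 10.3 and 8.35 RPKM in oral and 3.58, 5.87 and 4.03 RPKM in nasal libraries, with no overlap. Hbb-y likewise did not overlap, at 280 to 373 RPKM in oral and 151 to 243 RPKM in nasal libraries. Hba-x was 165 to 340 RPKM against 91.7 to 192 RPKM and Hba-a1 78.4 to 265 RPKM against 40.7 to 135 RPKM, both with overlap. The share of all genes without overlap between compartments was not counted, here or for the gaps named above. Such gaps thus cannot be read as particular to the members.

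The oral minus nasal difference in the posterior palate was 0.98 (SE 0.25) for Slc4a1, 0.79 (SE 0.25) for Hbb-y and 0.97 (SE 0.36) for Hba-x, with limma adjusted p-values of 0.153, 0.30 and 0.461. It was 1.02 (SE 0.53) for Hba-a1, 0.67 (SE 0.39) for Hbb-b1 and 0.09 (SE 0.28) for Alas2. The median of the 6 tested members was 0.88 against -0.01 over all 10586 genes. None was called (1.25% of all genes were), 3 had an unadjusted p under 0.05 (8%), and 0 met the study thresholds (3.5%). Within runs, 8 of 8 members were higher in oral in the Tgfbr2 run (1 library against 1) and 7 of 8 in the run of 8 libraries (2 against 1), where Alas2 was the exception at -0.35. The share of all genes was not counted within these runs.

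Endothelial markers moved with this comparison. All 10 were higher in posterior oral on average, with a median difference of 1.04, and their summed level was 208 to 286 RPKM in oral and 90.4 to 145 RPKM in nasal libraries, with no defining marker at 0 throughout. Macrophage markers were higher in posterior oral as well, 8 of 8 tested with a median of 0.43, none of them called by limma and 0 with an unadjusted p under 0.05, against 47.8% of all genes with a difference above 0. Their summed level was 138 to 166 RPKM in oral and 82.2 to 143 RPKM in nasal libraries, with overlap. The part of vessels and macrophages in the red cell values was not tested. One endothelial gene was called, the sialomucin gene Emcn (1.58, SE 0.28, limma adjusted p 0.0401), named after its value was seen.

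In the anterior palate oral minus nasal differences were of mixed sign. Hbb-y differed by -0.23 (SE 0.44), Hba-x by 0.55 (SE 0.38), Hba-a1 by -0.20 (SE 0.54), Hbb-b1 by -0.37 (SE 0.49) and Alas2 by 0.09 (SE 0.42). None of the 5 tested members was called by limma (0% of all 10684 genes were), 0 had an unadjusted p under 0.05 (2.98%) and 0 met the study thresholds (1.44%). Endothelial markers were higher in anterior oral too, 10 of 10 with a median of 0.75, beside 47.6% of all genes with a difference above 0. Whether the oral minus nasal difference itself changed along the axis was tested as an interaction. It was larger in the posterior palate for all 7 members tested, by a median of 1.02, but none was called (0.035% of all 11442 genes) and 0 had an unadjusted p under 0.05 (3.38%), with a lowest limma adjusted p of 1.00. Macrophage markers had a larger oral minus nasal difference in the posterior palate too, 8 of 8 tested with a median of 0.73. Of all genes 52.6% had a larger difference there.

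No lateral minus medial difference was called in these genes. In the anterior palate the lateral minus medial differences of the 6 tested members ran from -0.30 for Hbb-b1 to 0.30 for Hba-x. None was called (2.51% of all 10427 genes), 0 had an unadjusted p under 0.05 (15%) and 0 met the study thresholds (2.37%), and the lowest limma adjusted p was 0.637. In the posterior palate they ran from -0.49 for Hbb-b1 to 0.32 for Alas2, with SEs of 0.43 to 0.72. Again none was called (0% of all 10324 genes), 0 had an unadjusted p under 0.05 (1.54%) and 0 met the study thresholds (1.12%). The difference between these contrasts was not called for any of 6 members either (0.00902% of 11089 genes), and 0 had an unadjusted p under 0.05 (3.36%). No run held libraries of both compartments in either comparison, so that run and compartment cannot be told apart there. Endothelial markers were higher on average in lateral, 10 of 10 in the anterior (median 0.44) and 10 of 10 in the posterior palate (median 0.59). None was called by limma, and 9 and 1 had an unadjusted p under 0.05. Of the 6 tested members 2 and 1 were higher in lateral, with medians of -0.14 and -0.29, beside 44.7% and 54.3% of all genes. A link between these values was not tested.

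Over all 8 compartments at once, a moderated F test in limma called none of the 7 members tested (4.42% of all 11913 genes). Hbb-y had an unadjusted p of 0.0342 and an adjusted p of 0.331 in limma, and 1 of 7 members was under 0.05 unadjusted (12% of all genes). No neighbours in the order of means differed beyond their spread for any member, the lowest unadjusted limma p being 0.336. The ends of the order, picked here from the order itself and so given without adjustment, were apart for some members. Posterior oral was above anterior oral for Hbb-y by 1.26, and above anterior nasal for Hba-x by 1.33, for Slc4a1 by 1.63 and for Alas2 by 1.02, each without overlap. Posterior medial was above anterior lateral for Hbb-b1 by 1.17, also without overlap. For Hba-a1, Hbb-bh1 and Klf1 the ends overlapped. The share of all genes with ends apart was not counted, so these gaps cannot be read as particular to the members.

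Several members varied together across libraries. Over all 28 pairs and 25 libraries, 8 pairs had adjusted p-values under 0.05 in permutation tests of both Pearson and Spearman correlation. Slc4a1 was in 4 of them, with Hbb-y, Hba-x, Hba-a1 and Alas2. Pairs of other genes were not tested in this way, so the count cannot be read as particular to the members. The permutations mixed libraries of all runs and compartments, so what a pair owes to a shared run or compartment was not tested. The adult globins Hba-a1 and Hbb-b1 were the closest, with r = 0.88 and rho = 0.91 (adjusted permutation p 0.00014 and 9.33e-05, raw p 1e-05 in both, the smallest 100000 permutations can give). Without the 2 libraries farthest from the median r was 0.89, and within the run of 8 libraries it was 0.78. Since few windows of these copies are unique, their correlation over the 19 libraries with neither ERK2 nor Tgfbr2 in the name was also taken. It was rho = 0.86, and r = 0.70 on RPKM, whereas r values of pairs are on log2(RPKM + 0.1) unless RPKM is named.

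Alas2 and Slc4a1 followed with r = 0.79 and rho = 0.87 (adjusted permutation p 0.00014 and 9.33e-05), r = 0.86 without the farthest libraries and 0.82 within the run of 8. Hbb-y and Slc4a1 had r = 0.71 and rho = 0.78 (adjusted permutation p 0.000747 and 9.33e-05), r = 0.75 without the farthest and 0.57 within the run. The embryonic globins Hbb-y and Hba-x had r = 0.64 and rho = 0.70 (adjusted permutation p 0.0028 and 0.000952), r = 0.64 without the farthest and 0.88 within the run. Over the 19 libraries their rho was 0.85. Embryonic and adult alpha chains were not correlated over all libraries, Hba-x and Hba-a1 having r = 0.08 and rho = 0.13 (adjusted permutation p 0.848 and 0.661). Within the run of 8 libraries the same pair had r = 0.69, and over the 19 libraries r = 0.56, so that the pooled value does not hold within the sets.

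**Figure D5:**
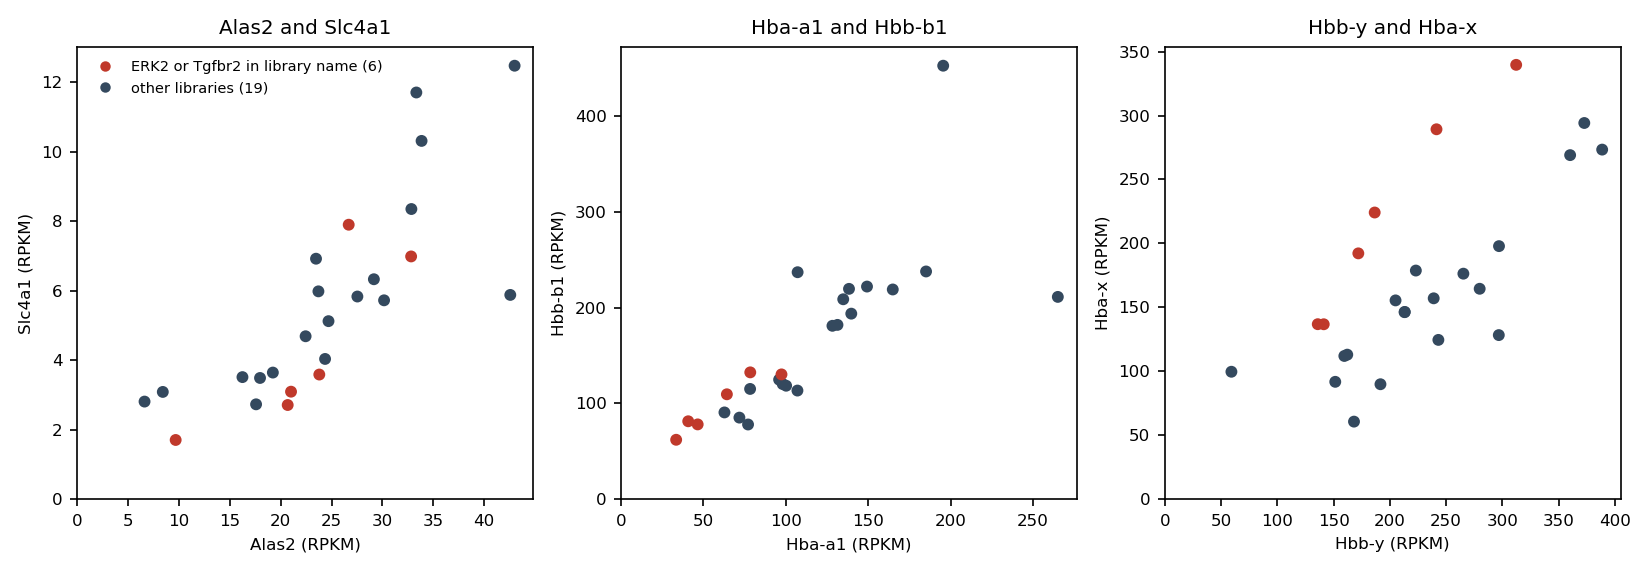
Levels (RPKM) of pairs of members against each other, 1 point per library, with red points for the 6 libraries with ERK2 or Tgfbr2 in their names. The pairs are Alas2 with Slc4a1, Hba-a1 with Hbb-b1, and Hbb-y with Hba-x. Hba-a1 and Hbb-b1 lie along 1 line (r = 0.88 on log2 values), with the red points at 33.4 to 97.3 RPKM of Hba-a1.

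Because some pairs of members varied together, promoters of members were searched for 3 motifs on both strands. These were CACCC (a box named for its letters), GATAA (the core of a GATA site) and the CCAAT box. Factors of the KLF family bind the first and GATA factors the second. The 250 bases before the start are printed for the embryonic Hbb-y and Hba-x, the adult Hba-a1 and for Alas2, with these motifs in capitals on whichever strand they were read. Sequences are from RefSeq, GRCm38.p6, at chr7:103853208-103853457 (minus strand), chr11:32276350-32276599 (plus), chr11:32283422-32283671 (plus) and chrX:150547167-150547416 (plus).
Hbb-y: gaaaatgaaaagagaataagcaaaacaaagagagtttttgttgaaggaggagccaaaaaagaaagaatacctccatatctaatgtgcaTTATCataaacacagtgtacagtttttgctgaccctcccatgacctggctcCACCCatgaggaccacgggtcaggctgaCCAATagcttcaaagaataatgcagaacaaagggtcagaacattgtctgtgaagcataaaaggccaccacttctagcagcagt
Hba-x: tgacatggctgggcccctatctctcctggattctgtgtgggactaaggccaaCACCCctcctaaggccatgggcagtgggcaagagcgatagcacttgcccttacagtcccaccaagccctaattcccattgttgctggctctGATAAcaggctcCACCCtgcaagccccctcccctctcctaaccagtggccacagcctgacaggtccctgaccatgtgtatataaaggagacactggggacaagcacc
Hba-a1: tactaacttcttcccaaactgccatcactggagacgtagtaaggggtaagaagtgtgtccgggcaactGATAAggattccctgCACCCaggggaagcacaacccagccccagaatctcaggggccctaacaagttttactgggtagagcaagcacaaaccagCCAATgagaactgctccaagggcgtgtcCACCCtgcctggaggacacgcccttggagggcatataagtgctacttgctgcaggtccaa
Alas2: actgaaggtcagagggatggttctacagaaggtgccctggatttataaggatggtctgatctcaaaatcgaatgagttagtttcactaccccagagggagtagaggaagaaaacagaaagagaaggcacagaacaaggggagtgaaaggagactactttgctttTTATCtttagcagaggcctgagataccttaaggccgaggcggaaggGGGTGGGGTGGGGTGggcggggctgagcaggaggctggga
By symbol, promoters were found for 5 of the 8 members, these 4 and Klf1, and not for Hbb-b1, Hbb-bh1 and Slc4a1. All 5 held both CACCC and GATAA, which 10.1% of 32851 promoters of the same length did, and 3 of them (Hbb-y, Hba-a1 and Klf1) held all 3 motifs, as 3.45% did. Single motifs were common, CACCC in 52.0%, GATAA in 22.6% and CCAAT in 33.8% of promoters. A match is a run of letters and not a measured binding site. Hba-a2 has the same 247 bases as Hba-a1, shifted by 3, with 0 differences. Promoters of the adult beta genes Hbb-bs and Hbb-bt held all 3 motifs too, and were not matched to the Hbb-b1 row.

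Other red cell genes were read from lists. Of 64 genes in 5 lists of other globins, red cell membrane, heme synthesis and iron uptake, erythroid regulators and other red cell genes, 36 were below 5 RPKM on average. In anterior lateral against medial 1 of 27 tested was called (3.70%, beside 2.51% of all genes), 2010011I20Rik, lower in anterior lateral than medial by 1.58 on the log2 scale (SE 0.23, limma adjusted p 0.0163) and named after its value was seen. In the other 4 comparisons between regions none of the 23 to 28 tested was called by limma, and 0 to 3 had an unadjusted p under 0.05. Of the other globins, Beta-s (237 RPKM), the tissue globin Cygb (14.4 RPKM) and Hba-a2 (12.3 RPKM) had the highest means. Posterior minus anterior was 0.38 (SE 0.29) for Beta-s and 0.56 (SE 0.33) for Cygb, neither called, while Hba-a2 passed the minimum only through the 6 named libraries, 4 of them posterior.

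Membrane genes were led by Epb4.1 (18.1 RPKM), Aqp1 (16.4 RPKM) and Gypc (15.5 RPKM), which other cells express too. Heme and iron genes were higher, with the mitochondrial iron carrier Slc25a37 at 36.6, Fech, the last enzyme of heme synthesis, at 31.1, Urod at 30.7 and Alad at 28.8 RPKM. In posterior against anterior, 6 of 9 heme and iron genes tested were higher on average, with a median of 0.17, beside 55.7% and 0.03 for all genes. Regulators were low apart from Ldb1 (38.9 RPKM), with Lmo2 at 7.95, Bcl11a at 7.75 and Gata1 at 0.414 RPKM. Bcl11a, a repressor of embryonic globin genes, was the only one of 34 tested genes of these lists called over the 8 compartments (2.94%, beside 4.42% of all genes, range of means 2.02 on the log2 scale, limma adjusted p 0.0154). Of the other red cell genes, Prdx2 (123 RPKM), Cat (86.7 RPKM) and Bnip3l (48.0 RPKM) were the highest.

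Genes whose levels were most like the mean of the members over 25 libraries were sought among 11913 genes. Trak2 (rho = 0.76), Ube2z (0.76), Maz (0.75), Clrn1 (0.74), Srd5a3 (0.74), Naprt1 (0.74), Rnf122 (0.73), Fam134c (0.73), Mark4 (0.72) and Atg9a (0.72) came first among genes that are no members. Of the members themselves Slc4a1, Alas2, Hba-x and Hbb-y ranked above these genes, while Hbb-bh1 (rho = 0.50), Hba-a1 (0.47) and Hbb-b1 (0.44) ranked below them. Each member is part of that mean, which raises its own rho, so ranks of members and of other genes are not like measures. The median rho of all genes was 0.08.

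Counting error sets how firmly these values stand. At the median number of reads it was 4.78% for Hbb-y, 5.78% for Hba-x, 7.54% for Hba-a1, 6.12% for Hbb-b1, 8.38% for Alas2 and 11.7% for Slc4a1, all below the spread between replicates of most compartments. For Klf1 it was 50% and for Hbb-bh1 44.7%, so that differences in these genes were not detectable at this depth unless large. Since duplicate reads were removed, a short abundant transcript can fill its start positions. In posterior oral 1 the estimated reads of Hbb-y and Hba-x came to 106% and 116% of the start positions on both strands. More reads than start positions cannot remain if each position counts once. Either the estimates or the removal of duplicates were thus not exact in posterior oral 1, and which was not tested. High shares were also estimated for Hba-x in posterior medial 1 (85.8%) and anterior oral 3 (80.0%), and for Hbb-y in posterior medial 3 (81.5%). The medians over libraries were 27.1% for Hba-x and 38.4% for Hbb-y. Whether filled positions held down high globin levels, and with them differences and embryonic shares, was not tested.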

How the data were processed

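RNA of LCM compartments was amplified with NuGEN Ovation V2, tagmented with Nextera and sequenced on an Illumina HiSeq as single-end 50 base reads. The submitters' processing notes name TopHat and mm9, and the annotation is not given in the sources used here. The authors deposited RPKM values per gene made in GeneSpring, with duplicates and reads of more than 1 alignment left out, which can lower near-identical globin copies. Depth (1.64 to 6.56 M reads behind the RPKM values, not all reads sequenced) was worked out here from the steps between RPKM values. Read numbers are thus estimates, and 597 of 600 pairs of libraries gave matching steps.

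Groups and replicate numbers came from the sample labels and sequencing runs, 8 in all, from alignment names. The labels do not tie replicates to embryos, so p-values measure the spread between libraries. The members and lists were chosen with earlier results of these data known. The 8 members were named in full, and up to 4 genes of each other list by mean RPKM.

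Comparisons used limma 3.58.1 in R 4.3.3 (lmFit and eBayes) on log2(RPKM + 0.1), two-sided, with Benjamini-Hochberg adjustment over all genes tested and 0.05 as threshold. Genes entered a comparison of compartments with 5 RPKM or more in 3 samples, and that of posterior with anterior with 10 RPKM or more in 6. The fit was tested on simulated data, where small changes were missed in most comparisons of a pair of compartments, and larger ones too in posterior lateral against medial, so a difference that was not called may still exist. With 3 libraries against 3, an exact permutation test cannot go below p = 0.1 and was not used. Alternatives were pseudocounts of 1 and 0.01, other minimums, median centring, quantile normalization, a mean-variance trend, a replicate block, a fit of all 25 samples with and without the run, and leaving out each library. The main fits used no pairing by replicate number. Deviations of same-numbered libraries correlated at 0.239, 0.215 and 0.13 in anterior oral against nasal, and at 0.226, 0.0361 and 0.277 in posterior lateral against medial. They were of mixed sign in posterior oral against nasal (0.218, -0.0755 and 0.418) and in anterior lateral against medial (0.00424, -0.155 and 0.00719). Within-run values, the fits without the 6 named libraries and the Hba-a1 and Hba-a2 sum were added after seeing the data. Windows were counted on GENCODE M21 transcripts (GRCm38), and no coordinates were converted between builds. Correlations used scipy 1.17.1 with 100000 permutations, and figures matplotlib 3.10.9.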

Additional observations from a re-analysis of the deposited data

Results flagged for a closer look

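In 4 libraries of the anterior nasal compartment, the fourth stood far from the other 3 for 2 of 10 globin and red cell genes looked at. Hbb-bh1 was 10.04 RPKM in anterior nasal 4 and 0.462 to 1.60 RPKM in the others, a gap of 0.881 of the whole range, and the 95% critical value of Dixon's test lies below both gaps given here. Hba-a2 was 36.9 RPKM there and 0 to 2.21 RPKM in the others, a gap of 0.940 of the range. Chance gives such a gap in about 1 of 20 groups, and only the compartment with 4 replicates could be examined in this way. Anterior nasal 4 is the library of that compartment named for Tgfbr2.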

How the results depend on the processing

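Limits lie in depth for Klf1 and Hbb-bh1, in 3 replicates per compartment, and in copies that share reads. Whether a member was called changed under 1 alternative, posterior against anterior without posterior medial 2, where Alas2 was called and the number of members called ranged from 0 to 1 over libraries left out. With the replicate block 0 members were called in any comparison, the lowest limma adjusted p being 0.111 for Hba-a1 in posterior oral against nasal, and Alas2 in anterior oral against nasal turned to -0.13. In a fit of all 25 samples with the run, some uncalled differences turned sign. Anterior lateral against medial gave 0.98 for Hba-a1, 0.83 for Hbb-b1, 0.61 for Alas2 and 0.13 for Slc4a1. Posterior lateral against medial gave 0.50 for Hbb-y, 0.74 for Hba-x, 0.85 for Hba-a1, 0.41 for Hbb-b1 and 0.42 for Slc4a1. Posterior oral against nasal gave -0.13 for Alas2, the lateral-medial interaction 0.0545 for Hba-x and 0.29 for Slc4a1, and the oral-nasal interaction -0.17 for Alas2. Quantile normalization turned Hba-a1 to 0.0239 and Alas2 to -0.00571 in these interactions, and a pseudocount of 1 turned Alas2 to -0.00333. The cause was not tested. With Hba-a1 and Hba-a2 summed, posterior minus anterior was 0.49 (SE 0.20).

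Leaving out 1 library turned the sign of some uncalled differences, with these ranges. Anterior lateral against medial gave -0.10 to 0.13 for Hbb-y, -0.46 to 0.0923 for Hba-a1, -0.66 to 0.0842 for Hbb-b1, -0.36 to 0.0801 for Alas2 and -0.58 to 0.28 for Slc4a1. Posterior lateral against medial gave -0.57 to 0.11 for Hbb-y, -0.54 to 0.092 for Hba-x, -0.62 to 0.14 for Hba-a1, -0.51 to 0.83 for Alas2 and -1.0001 to 0.0564 for Slc4a1. Anterior oral against nasal gave -0.57 to 0.35 for Hbb-y, -0.58 to 0.38 for Hba-a1, -0.72 to 0.0495 for Hbb-b1 and -0.19 to 0.55 for Alas2. Posterior oral against nasal gave -0.0569 to 0.36 for Alas2. The lateral-medial interaction gave -0.57 to 0.11 for Hbb-y, -0.40 to 0.36 for Hba-a1, -0.62 to 0.28 for Hbb-b1, -0.40 to 0.94 for Alas2 and -0.83 to 0.23 for Slc4a1. The oral-nasal interaction gave -0.36 to 2.77 for Hbb-bh1 and -0.46 to 0.28 for Alas2.

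Counts of all genes called changed more than those of members. For anterior lateral against medial 262 became 157 with the block, 31 in the fit of all 25 samples and 0 with the run, and 55 to 195 with 1 library left out. Posterior lateral against medial went from 0 to 25 in the fit of all samples. Posterior oral against nasal went from 132 to 42 without a minimum, 82 with the trend, 68 in the fit of all samples, 15 with the run and 12 to 57 with 1 library left out. Posterior against anterior went from 286 to 491 without a minimum, 559 with a minimum of 1 RPKM and 143 with the run, and the 8 compartments from 526 to 177 with the run.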
